A study of Homo sapiens with 2 samples.

Results

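The genes described here are 29 genes of cholesterol synthesis and of its control by the sterol regulatory element-binding proteins (SREBPs), out of 36601 genes in the count matrices. They were chosen by symbol as members of the pathway, and all 29 were found in both matrices. The cells were those of LNCaP_C4-2B and LNCaP_FGC. LNCaP is a human prostate carcinoma line established from a lymph node metastasis, and LNCaP_C4-2B is a strain of it that no longer depends on androgen supply (castration-resistant). Neither line was treated, both grew in one kind of medium with fetal bovine serum, and 1 library of 1850 single cells was sequenced from each. ETV1, the ETS transcription factor gene rearranged in LNCaP, had 0 UMIs in LNCaP_C4-2B (0 of 1850 cells, where a limit of 3 counts leaves room for UMIs in up to 0.162% of them) and 5426 UMIs in LNCaP_FGC (67.0% of 1850 cells, 95% exact binomial interval 64.8% to 69.2%), so LNCaP_FGC cells without and with ETV1 UMIs were also compared.

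Cholesterol is built from acetyl-CoA through mevalonate. Mevalonate is converted to isoprenoid diphosphates, which also feed protein prenylation, dolichol and ubiquinone. Farnesyl diphosphate is joined head to head to give squalene, squalene is closed to lanosterol, and lanosterol is trimmed and rearranged to cholesterol. When sterols in the endoplasmic reticulum are scarce, SCAP escorts SREBPs to the Golgi, where proteases release the part that switches on the genes of the pathway. When sterols are plentiful, the INSIG proteins hold SCAP back. INSIG1 is itself a target of SREBPs. Prostate carcinoma cells use cholesterol for membranes and as the starting material of steroids, and androgens are known to act on SREBPs in LNCaP cells.

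Levels are given as CPM, that is UMIs (tagged transcripts) scaled to the total of the library or of the group of cells. Since the reads are tags of transcript 3′ ends and efficiency differs between genes, levels were compared between cells and not ranked between genes. Each line had 1 library, so no test could be run. Intervals in parentheses are exact 95% intervals of the counting error alone, and differences between cultures were not measured. The libraries also carry different batch labels, and strain cannot be told apart from batch. The totals were 35149989 UMIs in LNCaP_C4-2B and 35150013 UMIs in LNCaP_FGC, and no cell barcode was shared. The cells of LNCaP_C4-2B had a median of 4133 genes, against 4909.5 in LNCaP_FGC, and ribosomal protein genes took 28.2% of UMIs, against 23.2%. Of 17897 genes that had 10 or more UMIs when both libraries were summed, the median one had a LNCaP_C4-2B CPM 0.714 times its LNCaP_FGC CPM (log2 -0.49). Folds are given relative to that median gene, and a gene counts as higher or lower when it lies at least 1.5-fold from it. Markers of prostate luminal epithelium summed to 4857 CPM in LNCaP_C4-2B and 1947 CPM in LNCaP_FGC, with 7 of 7 detected in each. The immune list summed to 2.16 CPM in LNCaP_C4-2B and 1.48 CPM in LNCaP_FGC, and the endothelial list to 0.910 CPM in LNCaP_C4-2B and 3.50 CPM in LNCaP_FGC. The fibroblast list summed to 1.42 CPM in LNCaP_C4-2B and 22.1 CPM in LNCaP_FGC. ACTA2 made up most of the fibroblast sum in LNCaP_FGC, and COL1A2 and DCN were at 0 in both.

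The first question was how the pathway differed between the castration-resistant strain and its parent. All 29 members passed the minimum of 10 UMIs. In LNCaP_C4-2B, 10 members were higher and 4 were lower than in LNCaP_FGC by the 1.5-fold limit. These are 34.5% and 13.8% of the members, beside 26.0% higher and 26.4% lower among all genes counted. With a minimum of 100 UMIs, 7 of the 29 members were higher and 4 were lower. Among the 12764 genes counted at that minimum, 22.8% were higher and 22.3% lower. Relative to the median gene, the share of higher members was thus not far above that of all genes, while lower members were fewer. By CPM ratio the same limit gave another split. HMGCS1, MVD, IDI1, SCAP, STARD4 and NPC2 then also lay at least 1.5-fold lower. Of the 10 higher members, only PMVK, FDPS, FDFT1 and INSIG1 stayed at least 1.5-fold higher. By CPM the median gene itself had a ratio of 0.714, and this split carries that shift of all genes. The share of all genes past the limit by CPM was not counted. Summed over the 29 genes, the level was 1576 CPM in LNCaP_C4-2B and 1563 CPM in LNCaP_FGC, so the CPM ratio was 1.01 and the fold relative to the median gene 1.41. The median member lay at a log2 ratio of 0.16 above the median gene, and at -0.33 on the CPM scale. Its sign depends on the scaling, as does that of ACAT2, MVK, SQLE, MSMO1, DHCR7 and SREBF2, which lay below 1 by CPM and above the median gene.

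**Figure D1:**
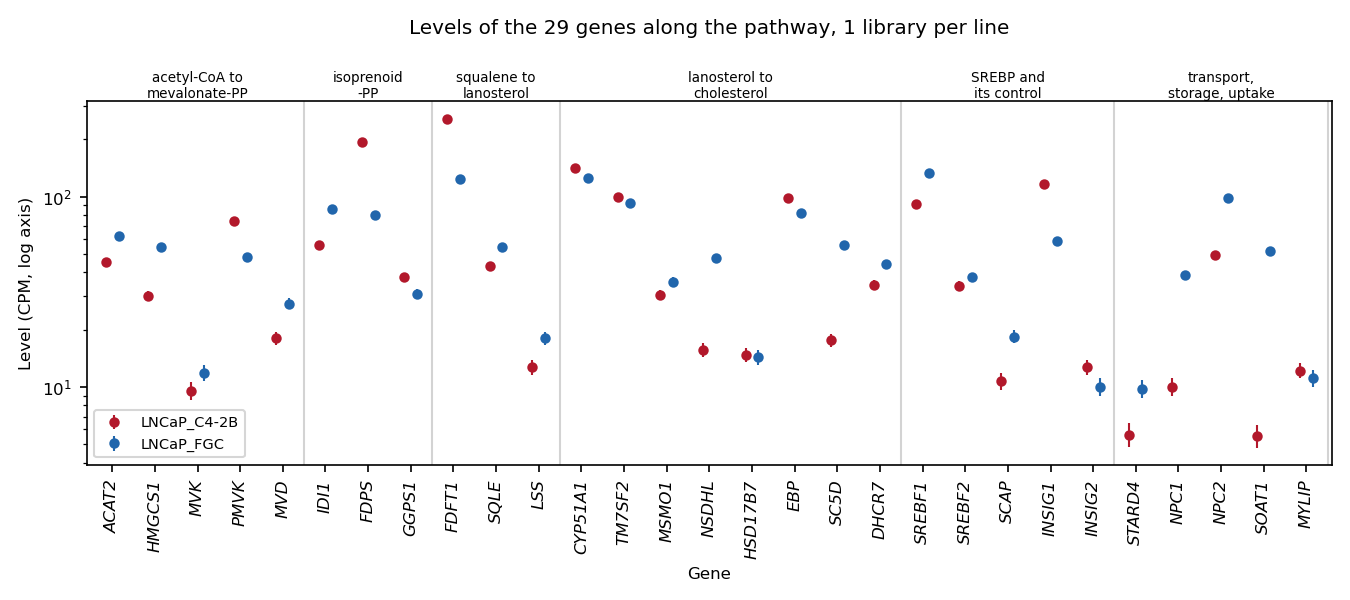
Level of each of the 29 genes in CPM (log axis) in LNCaP_C4-2B (red, left of each pair) and LNCaP_FGC (blue, right), in pathway order; bars are exact 95% Poisson intervals and cover counting error only. FDPS, FDFT1 and INSIG1 stand higher in LNCaP_C4-2B, and NSDHL, SC5D, NPC1 and SOAT1 lower.

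In the steps from acetyl-CoA to mevalonate diphosphate, 1 of 5 genes was higher and none was lower in LNCaP_C4-2B. That gene was PMVK (chromosome 1, 154924740 to 154936719), which phosphorylates phosphomevalonate. PMVK had 74.4 CPM in LNCaP_C4-2B (71.6 to 77.3) and 48.4 CPM in LNCaP_FGC (46.2 to 50.8), a fold of 2.15 relative to the median gene (2.02 to 2.29). HMGCS1, the cytosolic HMG-CoA synthase, went the other way without reaching the limit, with 30.0 CPM in LNCaP_C4-2B (28.2 to 31.9) and 54.2 CPM in LNCaP_FGC (51.8 to 56.7). Relative to the median gene its fold was 0.775 (0.718 to 0.836). PMVK and HMGCS1, both in these steps, therefore did not share a direction. ACAT2, which joins acetyl-CoA units, MVK, the mevalonate kinase, and MVD, which decarboxylates mevalonate diphosphate, lay at folds of 1.02, 1.13 and 0.925.

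The largest differences in favour of LNCaP_C4-2B lay at the branch point of the pathway. FDPS (chromosome 1, 155308748 to 155320666) makes farnesyl diphosphate, and FDFT1, the squalene synthase, commits it to sterols. FDPS had 6808 UMIs, 194 CPM (189 to 198), in LNCaP_C4-2B and 2806 UMIs, 79.8 CPM (76.9 to 82.8), in LNCaP_FGC. Its fold relative to the median gene was 3.40 (3.25 to 3.55), the largest among the 29. FDFT1 had 8951 UMIs, 255 CPM (249 to 260), in LNCaP_C4-2B and 4370 UMIs, 124 CPM (121 to 128), in LNCaP_FGC, a fold of 2.87 (2.77 to 2.98). Both enzymes around farnesyl diphosphate were thus more than 2-fold higher even by CPM. GGPS1, which makes geranylgeranyl diphosphate from the same intermediate, had 37.8 CPM in LNCaP_C4-2B and 30.9 CPM in LNCaP_FGC, a fold of 1.71 (1.58 to 1.86).

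The genes on either side of that point did not differ in the same way. IDI1, the isomerase that supplies FDPS, had 55.7 CPM in LNCaP_C4-2B and 86.0 CPM in LNCaP_FGC, a fold of 0.907 (0.857 to 0.961). SQLE, the squalene epoxidase and a rate-limiting step of the pathway, had 43.1 CPM in LNCaP_C4-2B and 54.2 CPM in LNCaP_FGC, a fold of 1.11 (1.04 to 1.19). LSS, which closes the ring to lanosterol, lay at 0.987 (0.872 to 1.12). Counts of FDPS, IDI1, CYP51A1 and HSD17B7 are less certain than the rest, since the genome holds pseudogene copies of them to which reads can also align.

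From lanosterol to cholesterol, 3 of 8 genes were higher, 2 were lower and 3 lay within the limit. The higher genes were close to the limit. CYP51A1, the lanosterol demethylase, stood at 141 CPM in LNCaP_C4-2B and 126 CPM in LNCaP_FGC (fold 1.56, with an interval that reaches down to the limit). TM7SF2, a sterol reductase, stood at 100 CPM in LNCaP_C4-2B and 92.3 CPM in LNCaP_FGC (fold 1.52, 1.45 to 1.60). EBP, the sterol isomerase, stood at 98.0 CPM in LNCaP_C4-2B and 82.5 CPM in LNCaP_FGC (fold 1.66, 1.58 to 1.75). Among G2M cells alone these 3 genes lay inside the limit. CYP51A1 did so among S cells alone as well, TM7SF2 with cells thinned to a common depth, and both with a minimum of 100 UMIs.

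The lower genes were further from the limit. NSDHL (chromosome X, 152830967 to 152869729), a sterol dehydrogenase that works on the C4 methyl groups, had 548 UMIs in LNCaP_C4-2B, 15.6 CPM (14.3 to 17.0), and 1673 UMIs in LNCaP_FGC, 47.6 CPM (45.3 to 49.9). Relative to the median gene it was 2.18-fold lower (1.98 to 2.40). SC5D (chromosome 11, 121292681 to 121313410), the sterol C5 desaturase, had 620 UMIs in LNCaP_C4-2B, 17.6 CPM (16.3 to 19.1), and 1958 UMIs in LNCaP_FGC, 55.7 CPM (53.3 to 58.2). It was 2.25-fold lower (2.06 to 2.47). These genes sat in the same stretch of the pathway as MSMO1, HSD17B7 and DHCR7, whose folds were 1.20, 1.45 and 1.09. MSMO1 is the methyl oxidase that acts before NSDHL, HSD17B7 a ketoreductase that acts after it, and DHCR7 the reductase at the end of the pathway.

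Among the regulators, both INSIG genes were higher in LNCaP_C4-2B and the SREBP and SCAP genes lay within the limit. INSIG1 (chromosome 7, 155297776 to 155310235) had 4109 UMIs in LNCaP_C4-2B, 117 CPM (113 to 121), and 2057 UMIs in LNCaP_FGC, 58.5 CPM (56.0 to 61.1), a fold of 2.80 relative to the median gene (2.65 to 2.95). INSIG2, its homologue, had 12.7 CPM in LNCaP_C4-2B and 9.96 CPM in LNCaP_FGC, a fold of 1.78 (1.54 to 2.05). SREBF2, which encodes SREBP-2, the form most tied to cholesterol genes, stood at 34.1 CPM in LNCaP_C4-2B and 37.7 CPM in LNCaP_FGC (fold 1.27, 1.17 to 1.37). SREBF1, which encodes the forms most tied to fatty acid genes, stood at 91.6 CPM in LNCaP_C4-2B and 133 CPM in LNCaP_FGC (fold 0.967, 0.925 to 1.01). SCAP had a fold of 0.814 (0.715 to 0.926). The activity of SREBPs depends on their cleavage, which transcript counts do not measure.

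The genes of transport and storage held the lowest folds of all 29. SOAT1 (chromosome 1, 179293714 to 179358680), which esterifies cholesterol for storage in lipid droplets, had 194 UMIs in LNCaP_C4-2B, 5.52 CPM (4.77 to 6.35), and 1822 UMIs in LNCaP_FGC, 51.8 CPM (49.5 to 54.3). It was 6.70-fold lower relative to the median gene (5.78 to 7.81) and 9.39-fold lower by CPM. NPC1 (chromosome 18, 23506184 to 23586506), which exports cholesterol from lysosomes, had 350 UMIs in LNCaP_C4-2B, 9.96 CPM (8.94 to 11.1), and 1356 UMIs in LNCaP_FGC, 38.6 CPM (36.6 to 40.7), and was 2.77-fold lower (2.46 to 3.12). NPC2, which hands cholesterol to NPC1, had 49.6 CPM in LNCaP_C4-2B and 98.7 CPM in LNCaP_FGC and was 1.42-fold lower, inside the limit. STARD4, a cytosolic sterol carrier, stood at 5.60 CPM in LNCaP_C4-2B and 9.82 CPM in LNCaP_FGC (fold 0.800, 0.668 to 0.956). MYLIP, a ubiquitin ligase that acts on lipoprotein receptors, was the only one of the 5 above the limit, at 12.2 CPM in LNCaP_C4-2B and 11.1 CPM in LNCaP_FGC (fold 1.54, 1.34 to 1.77), and it lay inside the limit with a minimum of 100 UMIs, among G2M cells alone and with cells thinned to a common depth.

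**Figure D2:**
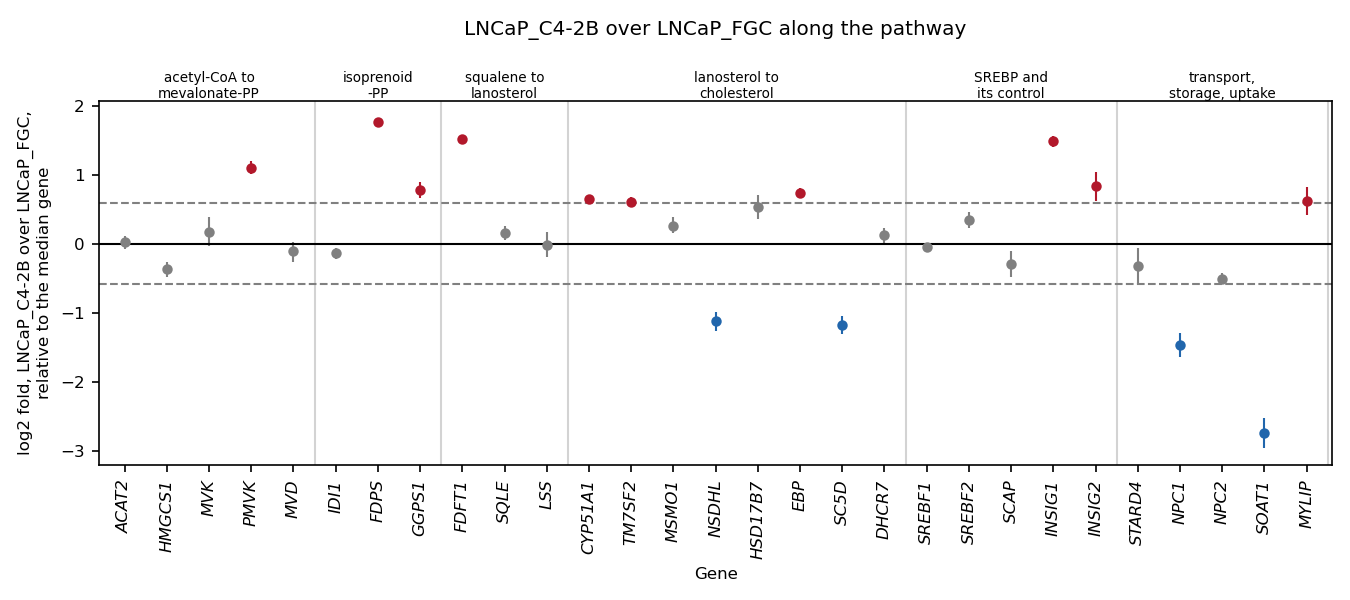
Log2 fold of LNCaP_C4-2B over LNCaP_FGC relative to the median gene (line at 0) for the 29 genes in pathway order; bars are exact 95% counting intervals, dashed lines mark 1.5-fold, red points are higher, blue points lower and grey points within the limit. FDPS at 1.77 is the highest point and SOAT1 at -2.75 the lowest.

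Genes outside the 29 that serve the same chemistry were counted in 5 further lists. Of 12 genes of sterol sensing and SREBP processing, 1 was higher and 2 were lower. Those 2 include MBTPS2, a protease that cuts SREBPs, with 10.8 CPM in LNCaP_C4-2B and 26.6 CPM in LNCaP_FGC. Of 5 genes for the promoter partners of SREBPs (NF-Y subunits, SP1 and SP3), none was called. Of 7 counted genes of other sterol enzymes, 1 was higher and 3 were lower. The higher one was LBR, a nuclear envelope protein with the same reductase activity as TM7SF2, at 108 CPM in LNCaP_C4-2B and 87.9 CPM in LNCaP_FGC. Of 12 genes that use isoprenoid diphosphates, 1 was higher and 1 was lower, the lower one being RABGGTB, a subunit of the Rab geranylgeranyl transferase, at 14.4 CPM in LNCaP_C4-2B and 35.5 CPM in LNCaP_FGC. Of 13 counted sterol carriers and lysosomal genes, none was higher and 2 were lower. Together 3 of 49 genes were higher and 8 were lower, which is 6.12% and 16.3%, beside 26.0% and 26.4% of all genes counted, and their median log2 ratio was -0.11 relative to the median gene.

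The second question was whether LNCaP_FGC cells differed with their ETV1 transcripts. Each cell was thinned at random to 11901 UMIs, so that a cell without ETV1 UMIs was not merely a shallow one. At that depth 622 cells had 0 ETV1 UMIs, 743 had at least 2, and 258 with 1 were left out. With about this depth a cell that expresses ETV1 weakly can still show 0 UMIs, and the groups are mixtures to that extent. By called cell cycle phase, 40.8% of cells without ETV1 (36.9% to 44.8%) and 46.2% of cells with ETV1 (42.5% to 49.8%) were in G1. KLK3, the gene of prostate-specific antigen, stood at 207 CPM in cells without ETV1 and 1293 CPM in cells with ETV1.

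Of the 29 members, 4 were higher in cells without ETV1 and none was lower, which is 13.8% and 0%, beside 9.13% higher and 7.70% lower among 14806 genes counted. Among 9999 genes with at least 100 UMIs, 2.84% were higher and 2.99% lower, and the same 4 members were called. The median member lay at a log2 ratio of 0.07 relative to the median gene. Summed over the 29, the level was 1707 CPM in cells without ETV1 and 1451 CPM in cells with ETV1.

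NPC1 differed most. It had 413 UMIs, 55.8 CPM (50.5 to 61.4), in cells without ETV1 and 25.7 CPM in cells with ETV1, a fold of 2.06 relative to the median gene (1.74 to 2.43). Over 13 alternative settings that fold ran from 1.80 to 2.35, within each phase and without ACTA2-positive cells included. The other scalings among these settings could not move a fold relative to the median gene. INSIG1 stood at 76.1 CPM in cells without ETV1 and 44.4 CPM in cells with ETV1, a fold of 1.62 (1.42 to 1.85), and lay just inside the limit among G1 cells, at 1.48. HMGCS1 stood at 68.5 CPM in cells without ETV1 and 41.4 CPM in cells with ETV1, a fold of 1.57 (1.37 to 1.80). STARD4 had 14.3 CPM in cells without ETV1 and 8.48 CPM in cells with ETV1, a fold of 1.60 (1.18 to 2.18). The last 2 were the less stable calls. HMGCS1 lay inside the limit among G2M cells, without thinning, with another random draw of the thinning and with 1 ETV1 UMI enough for the positive group. STARD4 did so among S cells, with another draw and with at least 3 ETV1 UMIs. With another draw only INSIG1 and NPC1 were called.

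FDFT1 and LSS lay just inside the limit. FDFT1 had 157 CPM in cells without ETV1 and 100 CPM in cells with ETV1 (fold 1.48, 1.35 to 1.61). LSS had 21.9 CPM in cells without ETV1 and 14.1 CPM in cells with ETV1 (fold 1.47, 1.15 to 1.87). At the other end, SCAP had 14.7 CPM in cells without ETV1 and 19.2 CPM in cells with ETV1 (fold 0.725, 0.565 to 0.927). SOAT1, the lowest member between the strains, had 47.1 CPM in cells without ETV1 and 52.6 CPM in cells with ETV1 (fold 0.848, 0.736 to 0.977). SREBF1 had 130 CPM in cells without ETV1 and 138 CPM in cells with ETV1 (fold 0.889, 0.816 to 0.969). FDPS, the highest between the strains, lay at 1.05 here (0.943 to 1.17) and PMVK at 0.940 (0.814 to 1.09), both with intervals that include the median gene. The remaining members ran from 0.918 for INSIG2 to 1.28 for GGPS1 and MSMO1.

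Read by the number of ETV1 UMIs in the cell, NPC1 stood at 55.8 CPM with 0, 38.4 CPM with 1, 29.4 CPM with 2, 24.5 CPM with 3 and 23.5 CPM with 4 or more. It was thus lower at each further count, although the intervals of neighbouring counts from 1 upward overlapped. INSIG1 stood at 76.1, 49.2, 49.4, 48.2 and 38.8 CPM over the same counts, and HMGCS1 at 68.5, 50.2, 39.9, 48.2 and 38.8 CPM. FDFT1 stood at 157, 109, 99.8, 97.7 and 102 CPM. For FDFT1 and INSIG1 most of the difference lay between cells with none and cells with 1. CYP51A1 was level, between 124 and 130 CPM throughout. The groups ranged from 178 to 622 cells.

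**Figure D3:**
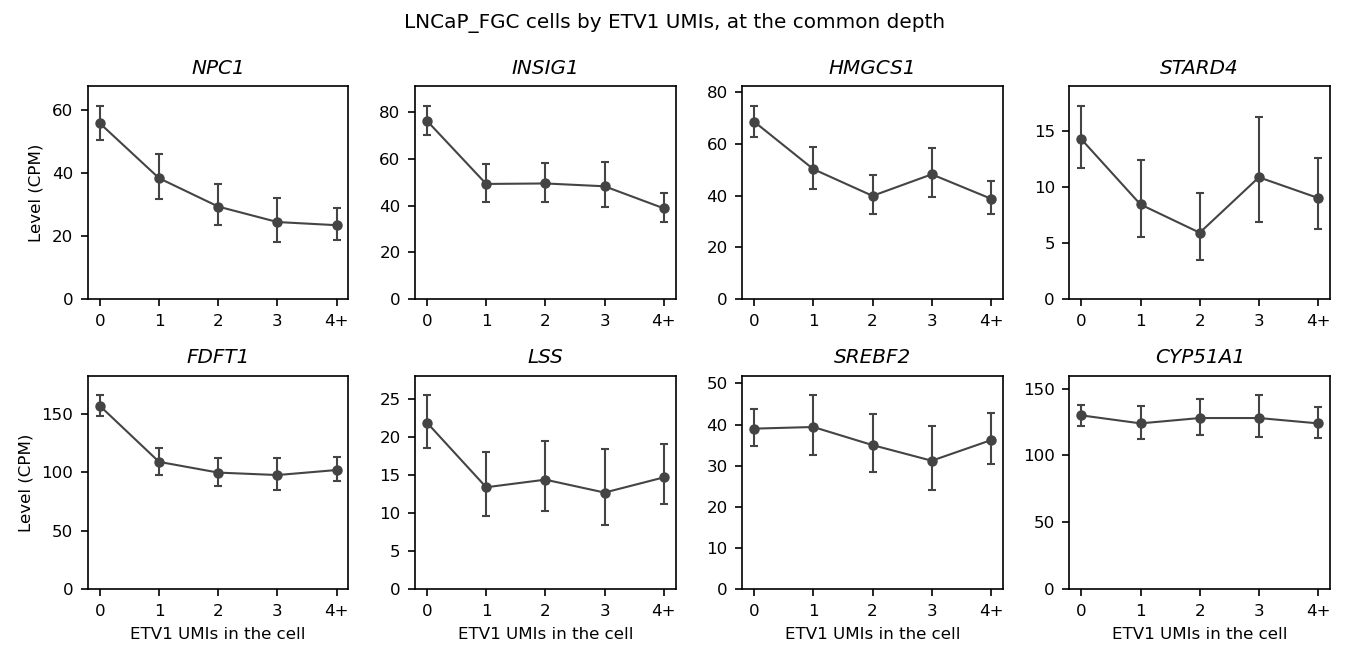
Level in CPM (from 0) of 8 genes in LNCaP_FGC cells with 0, 1, 2, 3 and 4 or more ETV1 UMIs, each cell thinned to 11901 UMIs; bars are exact 95% Poisson intervals. NPC1 stands at 55.8 CPM with no ETV1 UMI and 23.5 CPM with 4 or more, while CYP51A1 stays between 124 and 130 CPM.

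LNCaP_C4-2B, in which no ETV1 UMI was found, did not stand on one side of the LNCaP_FGC groups. At the same depth NPC1 stood at 10.3 CPM in LNCaP_C4-2B (8.98 to 11.9), with a fold relative to the median gene of 0.257 (0.216 to 0.304) over LNCaP_FGC cells without ETV1 and 0.530 (0.437 to 0.643) over those with ETV1. HMGCS1 stood at 30.6 CPM (28.2 to 33.2), with folds of 0.619 (0.550 to 0.698) over cells without ETV1 and 0.973 (0.854 to 1.11) over cells with ETV1. STARD4 had folds of 0.483 (0.364 to 0.642) over cells without ETV1 and 0.775 (0.568 to 1.06) over cells with ETV1. By CPM these genes lay below both groups, while relative to the median gene the intervals of HMGCS1 and STARD4 over cells with ETV1 include it. INSIG1 at 116 CPM (111 to 120) and FDFT1 at 252 CPM (245 to 259) were above both groups on either scale. These comparisons share the LNCaP_FGC cells, so the levels are only given side by side.

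In cells without ETV1, ACTA2, the smooth muscle actin gene, also stood at 31.6 CPM, against 5.43 CPM in cells with ETV1, and 130 of 622 cells without ETV1 and 38 of 743 cells with ETV1 had an ACTA2 UMI. The fibroblast list summed to 35.3 CPM in cells without ETV1 and 11.2 CPM in cells with ETV1, with COL1A2 and DCN at 0. COL1A1, a collagen gene, went the other way, at 3.65 CPM in cells without ETV1 and 5.65 CPM in cells with ETV1 (fold 0.610, 0.367 to 0.994). With all ACTA2-positive cells left out, a choice made after its level was seen, 5 members were higher: the same 4 and LSS. The share of all genes called without those cells was not counted. In the 5 further lists, 1 gene was higher and 2 genes under 5 CPM (CYP46A1 and GRAMD1C) were lower, of 48 counted, beside 9.13% higher and 7.70% lower among all genes.

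Some members also differed along the cell cycle, and the share of all genes that did so was not counted. None of the 29 is among the 43 S and 54 G2M genes from which the phase was called. In LNCaP_C4-2B, 904 cells were called G1, 390 S and 556 G2M, and in LNCaP_FGC 804, 463 and 583. TM7SF2 and NPC1 had the highest G1 folds of the 29 in both lines. TM7SF2 stood at 135 CPM in G1, 85.9 CPM in S and 65.2 CPM in G2M in LNCaP_C4-2B, and at 117, 77.5 and 72.0 CPM over the same phases in LNCaP_FGC. Its fold in G1 over the other phases, relative to the median gene, was 1.90 in LNCaP_C4-2B (1.77 to 2.03) and 1.60 in LNCaP_FGC (1.49 to 1.72). NPC1 stood at 12.3 CPM in G1, 9.87 CPM in S and 6.85 CPM in G2M in LNCaP_C4-2B and at 50.8, 29.8 and 29.7 CPM in LNCaP_FGC. Its G1 fold was 1.58 in LNCaP_C4-2B (1.27 to 1.96) and 1.74 in LNCaP_FGC (1.56 to 1.94).

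Other enzymes differed in which phase was high. LSS was on the G1 side, with a G1 fold of 1.34 in LNCaP_C4-2B (1.11 to 1.63) and 1.36 in LNCaP_FGC (1.16 to 1.59), while EBP and ACAT2 were on the opposite side. EBP stood at 73.7 CPM in G1, 120 CPM in S and 115 CPM in G2M in LNCaP_C4-2B, and at 55.3, 101 and 103 CPM in LNCaP_FGC. Its G1 level was 0.657 of that in the other phases in LNCaP_C4-2B (0.611 to 0.705) and 0.552 in LNCaP_FGC (0.508 to 0.598). ACAT2 was at 0.691 in LNCaP_C4-2B (0.622 to 0.768) and 0.652 in LNCaP_FGC (0.595 to 0.713) by the same measure. INSIG1 differed in being highest in G2M. It stood at 95.6 CPM in G1, 103 CPM in S and 156 CPM in G2M in LNCaP_C4-2B and at 45.3, 57.5 and 76.6 CPM in LNCaP_FGC, with a G2M fold of 1.52 in LNCaP_C4-2B (1.43 to 1.62) and 1.49 in LNCaP_FGC (1.37 to 1.63) over the other phases. SQLE had a G2M fold of 1.52 in LNCaP_C4-2B (1.37 to 1.68) and 1.18 in LNCaP_FGC (1.08 to 1.30). Isomerase and reductase genes of one short stretch of the pathway, EBP and TM7SF2, were therefore at opposite phases in both lines.

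**Figure D4:**
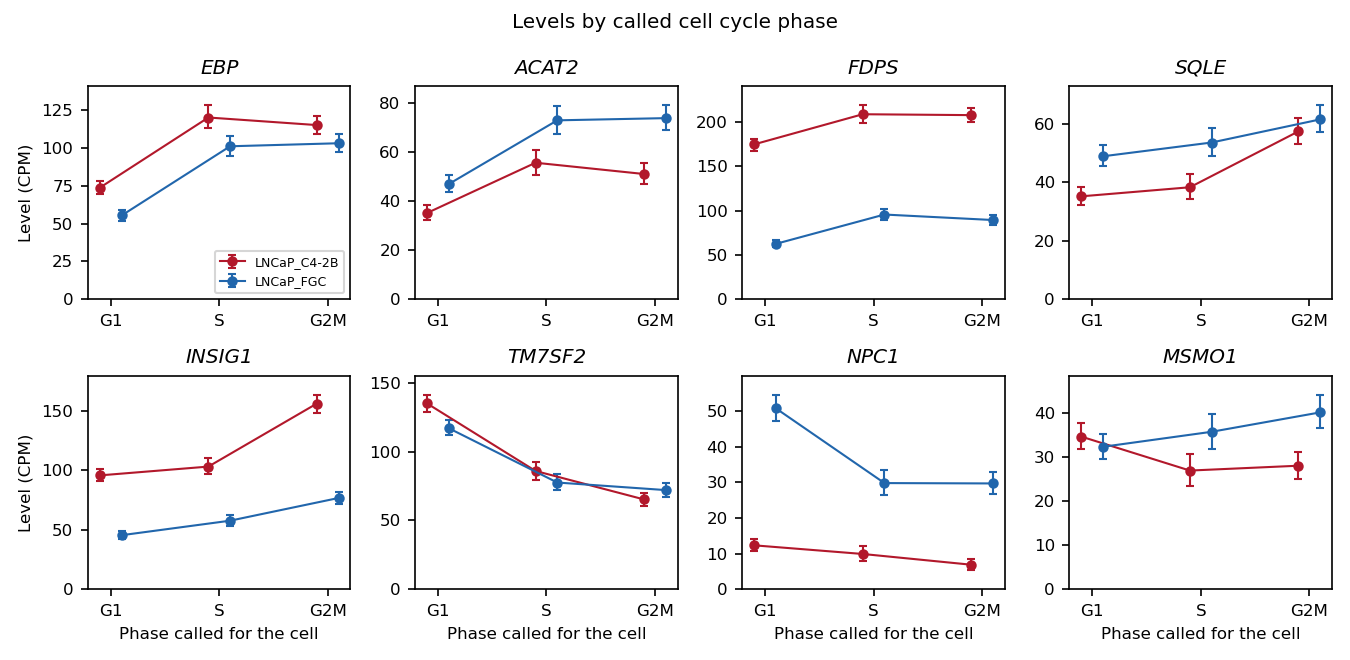
Level in CPM (from 0) of 8 genes by called phase in LNCaP_C4-2B (red) and LNCaP_FGC (blue); bars are exact 95% Poisson intervals. TM7SF2 and NPC1 are highest in G1, INSIG1 in G2M, and EBP is lowest in G1 in both lines.

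The 18 enzymes from ACAT2 to DHCR7, without GGPS1, were then followed over single cells at 11901 UMIs each. Their UMIs summed to a median of 13 per cell in LNCaP_C4-2B (mean 14 ± 6.24, SD over 1665 cells) and 12 in LNCaP_FGC (mean 12.6 ± 4.64, SD over 1623 cells). The variance of the sum was 2.79 times its mean in LNCaP_C4-2B and 1.71 times in LNCaP_FGC, where 18 genes that varied independently would have given 1.49 in LNCaP_C4-2B and 1.17 in LNCaP_FGC. The level of each enzyme was read in the cells of the upper and the lower quartile of the sum of the other 17, with ties kept, called high and low cells here. In LNCaP_C4-2B, 6 of 18 were at least 1.5-fold higher in the high cells, 16 lay above the median gene and the median fold was 1.42. Among the genes outside the enzymes, 5.15% were higher and 6.71% lower by the same limit. In LNCaP_FGC, 2 of 18 were higher, 15 lay above the median gene and the median fold was 1.25, beside 6.49% higher and 6.37% lower among other genes. Among G1 cells alone, 9 enzymes were higher and 1 was lower (NSDHL) in LNCaP_C4-2B, beside 7.35% higher and 8.57% lower among its other genes. In LNCaP_FGC 1 was higher among G1 cells and none was lower, beside 7.15% higher and 7.04% lower among other genes.

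HMGCS1 was among the enzymes that differed most with the others in both lines. It stood at 48.5 CPM in high cells and 24.1 CPM in low cells of LNCaP_C4-2B (fold 1.95, 1.59 to 2.40) and at 70.2 CPM and 37.7 CPM in high and low cells of LNCaP_FGC (fold 1.78, 1.51 to 2.10). MSMO1 had folds of 1.86 in LNCaP_C4-2B and 1.56 (1.27 to 1.92) in LNCaP_FGC. FDFT1 had 1.57 in LNCaP_C4-2B (1.46 to 1.69) and 1.28 in LNCaP_FGC (1.14 to 1.43). TM7SF2 went against the others, at 0.879 in LNCaP_C4-2B (0.786 to 0.984) and 0.832 in LNCaP_FGC (0.734 to 0.943). Among G1 cells alone it lay at 1.06 in LNCaP_C4-2B (0.916 to 1.22) and 1.00 in LNCaP_FGC (0.846 to 1.19), while HMGCS1 lay at 2.69 in LNCaP_C4-2B (1.97 to 3.71) and 2.05 in LNCaP_FGC (1.56 to 2.70).

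INSIG1, which is not among the 18, followed them. It had 184 CPM in the cells highest in all 18 enzymes and 76.8 CPM in the lowest in LNCaP_C4-2B, a fold of 2.32 (2.07 to 2.60), and 74.6 CPM in the highest and 40.5 CPM in the lowest in LNCaP_FGC, a fold of 1.76 (1.49 to 2.08). SREBF2 had folds of 1.14 (0.918 to 1.40) in LNCaP_C4-2B and 1.15 (0.949 to 1.39) in LNCaP_FGC, with intervals that include the median gene, although among LNCaP_FGC cells in G1 its fold was 1.39 (1.06 to 1.83). SREBF1, INSIG2, NPC2, SOAT1, NPC1 and MYLIP also had intervals that include it in both lines, although SREBF1 had 1.26 (1.05 to 1.53) among LNCaP_C4-2B cells in G1. STARD4 had an interval of 0.627 to 1.92 in LNCaP_C4-2B and a fold of 1.58 in LNCaP_FGC (1.08 to 2.34). SCAP had 0.972 in LNCaP_C4-2B (0.661 to 1.43) and 0.692 in LNCaP_FGC (0.515 to 0.928). In LNCaP_FGC the high cells had less ETV1, 118 CPM against 193 CPM in low cells (fold 0.584, 0.530 to 0.644), and less KLK3, 630 CPM against 968 CPM. In LNCaP_C4-2B KLK3 had 2751 CPM in high cells and 3030 CPM in low cells (fold 0.879, 0.860 to 0.899). MKI67, a proliferation marker, was higher in the high cells, with folds of 1.45 in LNCaP_C4-2B and 1.41 in LNCaP_FGC, and its part in these folds was not tested beyond the G1 values above.

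In LNCaP_C4-2B the upper tail of cells held more synthesis UMIs than any LNCaP_FGC cell, and it was singled out after the sums were seen. The cut is the LNCaP_FGC maximum and not a gap, since 3 LNCaP_C4-2B cells had 37 UMIs and 1 had 38. The highest sum in any LNCaP_FGC cell was 37 UMIs, and 14 of 1665 LNCaP_C4-2B cells (0.841%, exact binomial interval 0.460% to 1.41%) exceeded it, with 38 to 80 UMIs. They were not deep cells, with a median of 16780.5 UMIs before thinning, against 18181 in the other 1651. Of the 14 cells, 11 were called G1, 0 S and 3 G2M. INSIG1 had 522 CPM in them (418 to 644) and 112 CPM in the other cells (108 to 117), a CPM ratio of 4.66 (3.71 to 5.77). SREBF2 had 12 UMIs in the 14 cells, 72.0 CPM (37.2 to 126), and 34.4 CPM (31.9 to 37.1) in the other cells, a ratio of 2.09 (1.08 to 3.68). SREBF1 had a ratio of 1.01 (0.566 to 1.68). SOAT1 had 0 UMIs in the 14 cells, with a ratio interval of 0 to 3.74. GGPS1 had 2 UMIs, a ratio of 0.312 (0.0377 to 1.13). The intervals of SREBF1, SOAT1 and GGPS1 include equal levels. KLK3 had 4087 CPM in the 14 cells and 2770 CPM in the other cells, a ratio of 1.48 (1.37 to 1.59). In the upper quartile of LNCaP_C4-2B cells as a whole KLK3 was lower, as given above.

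Over all LNCaP_C4-2B cells the correlation of UMIs was 0.37 between FDFT1 and INSIG1, 0.32 between HMGCS1 and FDFT1 and 0.25 between HMGCS1 and IDI1. Without the 14 cells these values were 0.30, 0.16 and 0.10. Over 153 pairs of the enzymes the correlation had a median of 0.033 in LNCaP_C4-2B, with 7 pairs above 0.2. In LNCaP_FGC the median was 0.023, with none above 0.2 and a highest value of 0.18. Pairs of other genes were not counted, so these numbers of pairs have no background beside them. FDPS and FDFT1 also had more UMIs in LNCaP_C4-2B than in LNCaP_FGC, and the part of this in the correlations was not tested. The 7 pairs were counted with the 14 cells included and were not recounted without them. Without those cells FDPS and FDFT1 went from 0.25 to 0.16, and FDFT1 and MSMO1 from 0.24 to 0.16. The cells of a line share 1 library and were brought to 1 depth, the counts per cell are sparse, and the values are descriptions. With the 14 cells left out, the variance of the sum in LNCaP_C4-2B was 2.03 times its mean, with 1.34 for independent genes. HMGCS1 then had a CPM ratio of 1.63 between high and low cells, MSMO1 1.76 and FDFT1 1.48.

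**Figure D5:**
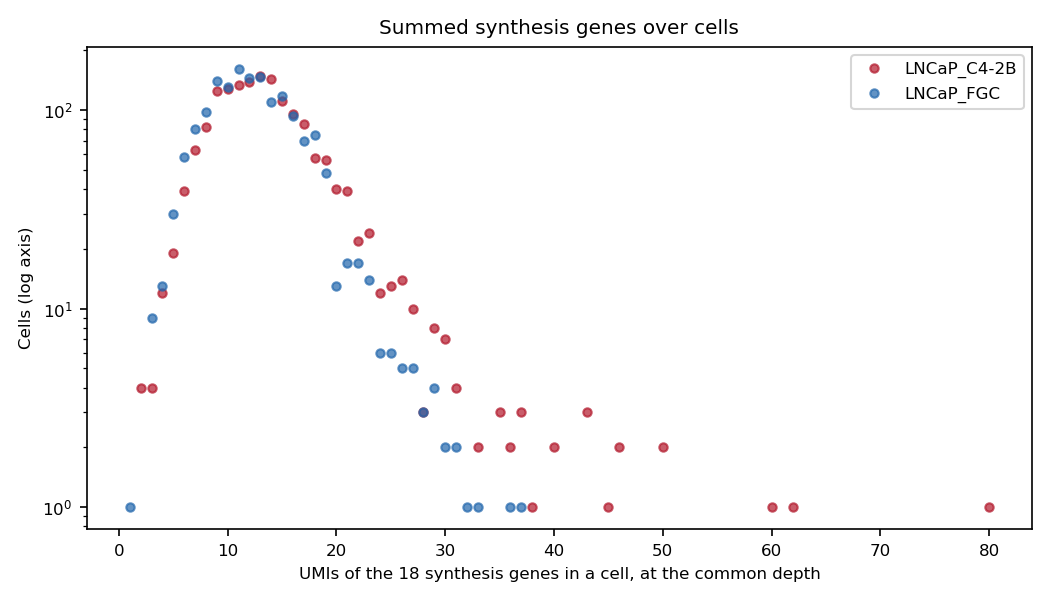
Number of cells (log axis) with each summed UMI count of the 18 synthesis enzymes at 11901 UMIs per cell, in LNCaP_C4-2B (red) and LNCaP_FGC (blue). No LNCaP_FGC cell lies above 37 UMIs, while 14 LNCaP_C4-2B cells reach 38 to 80.

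The promoters of the members were searched for the motifs through which SREBPs and their partners are known to act. RefSeq promoter windows on GRCh38.p14, running from 250 bases before to 50 after each start, were matched by symbol for 26 of the 29 genes. ACAT2, FDFT1 and SQLE were not matched. The motifs were TCACNCCAC, a form of the sterol regulatory element, TCACNTGA, its E-box-like form, CCAAT, the NF-Y box, and GGGCGG, the SP1 box, each on both strands. TCACNCCAC was found in 1 member, SREBF2, and in 1.39% of all 27305 genes in the table. TCACNTGA was found in INSIG1 and EBP and in 4.65% of all genes. CCAAT was found in 20 of 26 members, beside 39.7% of all genes, and GGGCGG in 25 of 26, beside 48.3% of all genes. Counted over windows of the same length, the shares of all 35116 windows were 1.13%, 3.79%, 34.6% and 45.0% for the 4 motifs in that order. Genes with several windows had more chances to match, and a match is letters in a window, not a bound site. The shares of all genes were not limited to genes with UMIs in these cells, whereas all members had UMIs in both lines.

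The 250 bases before the start are shown for the 3 members that hold a sterol element, and for FDPS and HMGCS1, the member with the largest fold between the strains and an enzyme that went with the others over the cells of both lines. Capitals mark TCACNCCAC, TCACNTGA and CCAAT, read on either strand (CCAAT reads ATTGG on the other strand). In INSIG1 (chr7:155297628-155297877, plus strand) the element TCACGTGA is its own reverse complement, so that both strands match at the same place, 56 bases before the RefSeq start. In the GENCODE annotation INSIG1, EBP, FDPS and HMGCS1 begin within the stretch shown, and this element then lies inside the gene.
INSIG1: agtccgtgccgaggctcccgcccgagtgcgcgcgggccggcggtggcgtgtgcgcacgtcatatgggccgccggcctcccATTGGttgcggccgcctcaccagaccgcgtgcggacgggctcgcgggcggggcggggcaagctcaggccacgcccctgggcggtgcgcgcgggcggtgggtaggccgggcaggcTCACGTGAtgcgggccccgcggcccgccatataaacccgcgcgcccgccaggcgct
EBP (chrX:48521558-48521807, plus strand): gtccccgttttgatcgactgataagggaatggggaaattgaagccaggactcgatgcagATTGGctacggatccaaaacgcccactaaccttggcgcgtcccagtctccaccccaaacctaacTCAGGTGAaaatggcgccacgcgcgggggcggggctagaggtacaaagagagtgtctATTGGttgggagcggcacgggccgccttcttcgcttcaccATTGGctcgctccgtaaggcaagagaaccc
SREBF2 (chr22:41832855-41833104, plus strand): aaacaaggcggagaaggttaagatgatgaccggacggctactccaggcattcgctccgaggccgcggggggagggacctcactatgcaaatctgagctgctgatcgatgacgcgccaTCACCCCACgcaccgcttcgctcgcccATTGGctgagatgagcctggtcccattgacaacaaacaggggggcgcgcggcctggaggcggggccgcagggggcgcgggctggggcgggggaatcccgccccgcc
FDPS (chr1:155308616-155308865, plus strand): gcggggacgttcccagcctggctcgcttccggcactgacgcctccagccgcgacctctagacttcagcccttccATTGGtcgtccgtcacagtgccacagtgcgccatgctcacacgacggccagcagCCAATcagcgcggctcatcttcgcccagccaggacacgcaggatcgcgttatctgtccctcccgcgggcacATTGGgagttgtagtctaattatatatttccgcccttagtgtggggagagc
HMGCS1 (chr5:43313413-43313662, minus strand): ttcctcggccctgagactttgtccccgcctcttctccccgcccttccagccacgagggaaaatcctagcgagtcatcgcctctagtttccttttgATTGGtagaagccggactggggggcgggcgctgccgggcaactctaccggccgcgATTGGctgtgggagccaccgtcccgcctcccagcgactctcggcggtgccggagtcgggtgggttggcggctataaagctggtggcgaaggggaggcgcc

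INSIG1 held the E-box-like element and 1 CCAAT box in this stretch, and 5 SP1 boxes. Whether such matches bear on the levels of INSIG1 or of other members was not tested. EBP held the E-box-like form TCAGGTGA and 3 CCAAT boxes. SREBF2, the gene of SREBP-2 itself, held TCACCCCAC 133 bases before the start and 1 CCAAT box. FDPS held 3 CCAAT boxes and HMGCS1 held 2, with none of the sterol forms searched, which says only that these letters are not in this window.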

How the data were processed

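Single-cell RNA-Seq was done with 10x Genomics 3′ chemistry on 1 library per line. The submitters' notes name Cell Ranger 6.0, the GRCh38 build and Seurat 5.011. Before deposit the authors removed cells by genes, reads, hemoglobin, ribosomal and mitochondrial shares and doublet score, drew the same number of cells per line and thinned the reads to a common mean. The values they deposited are UMI counts per gene and cell, so depth before thinning is not known here. No further cell filter or doublet caller was applied. Each library held 1850 cells, with 9593 to 48630 UMIs per cell in LNCaP_C4-2B and 8988 to 51088 in LNCaP_FGC.

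UMIs were summed over cells and scaled to CPM. Ratios have exact conditional, levels exact Poisson and shares exact binomial (Clopper-Pearson) 95% intervals. Genes with at least 10 UMIs over both groups were counted, and the median gene was taken among them. Where cells were compared, 11901 UMIs were drawn from each (percentile 10 of depth in LNCaP_C4-2B) and shallower cells were left out, leaving 1665 LNCaP_C4-2B and 1623 LNCaP_FGC cells. Phase was called with CellCycleScoring in Seurat 5.3.0 (R 4.3.3), and TMM factors came from edgeR 4.0.16. Other steps used Python 3.11.15 with SciPy 1.17.1, and the comparison was tested on simulated data. Positions are from GENCODE release 44 on GRCh38. Alternatives were other scalings, minimum counts, fold limits, single phases, ETV1 limits and draws of the thinning.

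All 29 members are accounted for. Those called in either comparison, and the 3 highest and lowest with at least 20 CPM, are given in full. The members and lists were chosen with earlier results of these data known, and no list here is independent support for a pattern. A gene of the further lists is counted but not reported by name here.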

Additional observations from a re-analysis of the deposited data

Results flagged for a closer look

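MSMO1, the sterol methyl oxidase, differed in opposite directions along the cell cycle in the lines, with counting intervals on opposite sides of the median gene. Its G1 level over the other phases, relative to the median gene, was 1.31 in LNCaP_C4-2B (1.16 to 1.48) and 0.863 in LNCaP_FGC (0.769 to 0.969). Its G2M level over the other phases was 0.843 in LNCaP_C4-2B (0.737 to 0.962) and 1.16 in LNCaP_FGC (1.03 to 1.31). MSMO1 stood at 34.6 CPM in G1, 26.9 CPM in S and 28.0 CPM in G2M in LNCaP_C4-2B and at 32.3, 35.7 and 40.1 CPM in LNCaP_FGC. MSMO1 is among the summed enzymes, and 11 of the 14 LNCaP_C4-2B cells highest in their sum were called G1. Its phase levels were not read without those cells, and the intervals do not cover spread between cells. MSMO1 was the one member of 29 with such intervals, and the share of all genes with such intervals was not counted. The difference between the lines was not tested, and its cause was not tested.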

How the results depend on the processing

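Between the strains, the count of higher members was 10 and stood at 6 among G2M cells alone and 4 with a 2-fold limit (PMVK, FDPS, FDFT1 and INSIG1); in the other 8 alternatives it ran from 7 to 11. Lower members numbered 4 or 5 in all alternatives, and NSDHL, SC5D, NPC1 and SOAT1 were among them each time. The other scalings shift all genes together, so they could not change a call made relative to the median gene. The median member's log2 ratio of -0.33 became -0.18 with totals free of ribosomal protein and mitochondrial genes, 0.15 with TMM factors and 0.14 with median-of-ratios factors, since these shift all genes together; relative to the median gene it stayed at 0.16 under them and was 0.01 among G2M cells. Between cells without and with ETV1, 4 members were higher; 2 were with another draw of the thinning and 1, NPC1, with a 2-fold limit, while 5 were among S cells (GGPS1 and LSS gained, STARD4 lost), among G2M cells (FDFT1 and LSS gained, HMGCS1 lost) and without ACTA2-positive cells (LSS gained). No member was lower except 1 among G1 cells (SCAP) and 1 among S cells (INSIG2). No called member turned its direction relative to the median gene under any alternative. Causes of these changes were not tested. No paired analysis was possible because each line has 1 library. Counting error is small for genes above 20 CPM and wide for STARD4, MVK and LSS in single groups of cells. Variation between cultures, libraries and batches was not measured.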
